A study of Mus musculus with 59 samples.

Results

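Nab2 and a group of immediate early genes were followed through lung, liver and forestomach of mice given benzo(b)fluoranthene (BbF), a polycyclic aromatic hydrocarbon. The group holds 10 genes of the 20018 named on the array: Nab2, Nab1, Egr1, Egr2, Egr3, Fos, Fosb, Junb, Ier2 and Dusp1. All 11 of their probes, of 55681 probes in all, were taken by matching each probe's transcript accession to a gene symbol. The genes were chosen by a measured value, the higher ratio of a Nab2 probe in high-dose than in vehicle liver, so the values of that comparison are given here as a description, without a test.

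Male Muta™Mouse of about 16 weeks, a transgenic strain carrying a bacterial reporter gene for mutation assays, received BbF in olive oil by gavage for 28 days at 25 (low), 50 (medium) or 100 (high) mg/kg-bw/day, or olive oil alone (vehicle). Tissues were taken 72 h after the last dose, so early responses to a single dose were not sampled. Each dose group had 5 mice and each mouse gave all 3 tissues, except that 4 low-dose lungs were analysed, which made 19 lung, 20 liver and 20 forestomach arrays. The labels are not of one mind on the compound: titles and the treatment text give BbF, while an exposure label and the design text give benz(a)anthracene. The doses are those that the study lists for BbF and differ from those it lists for benz(a)anthracene, and BbF is the name used here.

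On each array the tissue RNA (Cy5) was hybridised together with a reference RNA pooled from mouse cell lines (Cy3). A level below is the log2 ratio of tissue to reference for a probe, and a change is the difference between the mean log2 ratios of a dose group and the vehicle group of the same tissue. These ratios rank tissues and doses for 1 probe and cannot rank genes. A probe was called where the adjusted p was 0.05 or less and the change 1.5-fold or more, with limma's moderated test and Benjamini-Hochberg adjustment over all probes. The 3 doses of a tissue shared the vehicle arrays. In RNA from whole tissue, fewer cells of a type and less RNA per cell cannot be told apart.

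The liver arrays lay on 3 slides, and the third stood apart. On its 8 arrays 10.7 to 12.9% of probes were well above background in the tissue channel, against 37.0 to 46.2% on the other 12 liver arrays, 44.8 to 68.8% in lung and 39.6 to 52.0% in forestomach. It held vehicle mouse 5, low-dose mice 6 and 10, medium-dose mice 11 and 15, and high-dose mice 18, 19 and 20, and the ratios of dim probes lay nearer 0 on it than on the other slides. The slide was a term in the liver comparisons. Liver results of Nab2, Egr1, Fosb, Junb, Ier2 and Dusp1 are also given without the third slide. Of the pathway lists only the probes called without it are given, and of cell markers only mean levels. Tissue markers were where their labels put them: the mean level of the lung list (Sftpc, Sftpa1, Scgb1a1, Ager) was highest in lung, that of the liver list (Alb, Apoa2, Ttr, Cps1) in liver and that of the forestomach list (Krt5, Krt13, Krt4, Krt14) in forestomach. One lung stood apart: the forestomach list was at 3.28 in low-dose lung mouse 6, with all 6 of its probes well above background, against -0.73 to -0.40 in vehicle lungs. The liver list was at 1.62 to 4.32 in medium-dose forestomachs, highest in mouse 12, against 0.13 to 1.99 in vehicle forestomachs. Values without these 2 arrays are given below.

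Immediate early genes are transcribed within minutes of a stimulus from factors that are already in the cell, and most of their transcripts decay soon afterwards. Egr1, Egr2 and Egr3 encode zinc finger transcription factors that bind GC-rich sites, Fos, Fosb and Junb encode subunits of the AP-1 factor, and Dusp1 encodes a phosphatase that inactivates MAP kinases. Nab1 and Nab2 encode corepressors that bind Egr factors and hold back their activity, and Nab2 is itself a target of Egr factors. In tissue of handled animals these transcripts also respond to handling, anaesthesia and the time to freezing.

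Promoters of the pair of corepressors are shown first, because the liver values of this pair are set side by side below. The chromosome of Egr1 was left out of this search, so no start of Egr1 is shown. For the other members the RefSeq promoter table (GRCm38.p6) held 11 starts of 7 genes, and none was found for Egr3 and Ier2. The 250 bases before each start were searched on both strands for the EGR motif GCGNGGGCG, found before 4.70% of 32841 starts, the cAMP response element (CRE) TGACGTCA, found before 1.55%, the AP-1 motif TGANTCA, found before 6.75%, and the CArG box of serum response factor, found before 1.47%. No motif was found before the Nab2 start, and the letters GCGNGGGCG occurred 3 times before the Nab1 start, once on the reverse strand. Capitals mark motif matches, both sequences read 5′ to 3′ on the gene's minus strand and end at the base before the start, and a match is a description of letters only.
Nab2, chr10:127666704-127666953: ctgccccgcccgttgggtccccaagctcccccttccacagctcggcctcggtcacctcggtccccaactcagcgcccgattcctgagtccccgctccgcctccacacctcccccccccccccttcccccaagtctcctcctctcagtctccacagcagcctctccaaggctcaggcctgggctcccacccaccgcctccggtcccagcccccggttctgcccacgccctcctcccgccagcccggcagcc
Nab1, chr1:52500449-52500698: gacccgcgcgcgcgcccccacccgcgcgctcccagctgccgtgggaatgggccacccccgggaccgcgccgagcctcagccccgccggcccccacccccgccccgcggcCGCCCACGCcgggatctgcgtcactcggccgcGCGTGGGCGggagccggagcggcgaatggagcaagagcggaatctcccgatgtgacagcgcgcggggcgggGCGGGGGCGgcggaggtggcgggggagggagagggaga

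Nab2, the gene that led to the choice of this group, had 2 probes. The probe matched to NM_008668 (A_55_P2071059) was well above background on all 59 arrays, and values of Nab2 below are from it. In vehicle livers of mice 1 to 5 its log2 ratios were -1.42, -1.33, -1.50, -1.22 and -0.56. In low-dose livers of mice 6 to 10 they were -0.27, -1.02, -0.48, -0.73 and -0.26. Mouse 5 was the highest of the vehicle livers and mice 6 and 10 were the highest of the low-dose livers, and these 3 arrays were on the third slide. In medium-dose livers of mice 11 to 15 the ratios were -0.09, -0.18, -0.27, -0.21 and -0.21. In high-dose livers of mice 16 to 20 they were 0.05, -0.23, 0.13, -0.05 and 0.02. All 5 medium-dose and all 5 high-dose livers lay above every vehicle liver, and 3 of 5 low-dose livers did.

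The mean Nab2 ratio was -1.21 ± 0.38 in vehicle liver and then, with rising dose, -0.55 ± 0.32, -0.19 ± 0.07 and -0.02 ± 0.13 (SD, n = 5). With the slide as a term, the differences from vehicle were 0.58 ± 0.12, 0.94 ± 0.12 and 1.07 ± 0.12 (SE), the last a 2.10-fold difference. They carry no test, since these vehicle livers chose the gene. In the low, medium and high groups limma called 0%, 0.104% and 0.246% of all probes. Without the third slide, which left 4 livers given olive oil alone and 3, 3 and 2 with rising dose, the differences were 0.61, 1.13 and 1.33, and the 2 high-dose livers were on 1 slide. Among the 2568 probes of like brightness the median change at the high dose was 0.01.

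**Figure D1:**
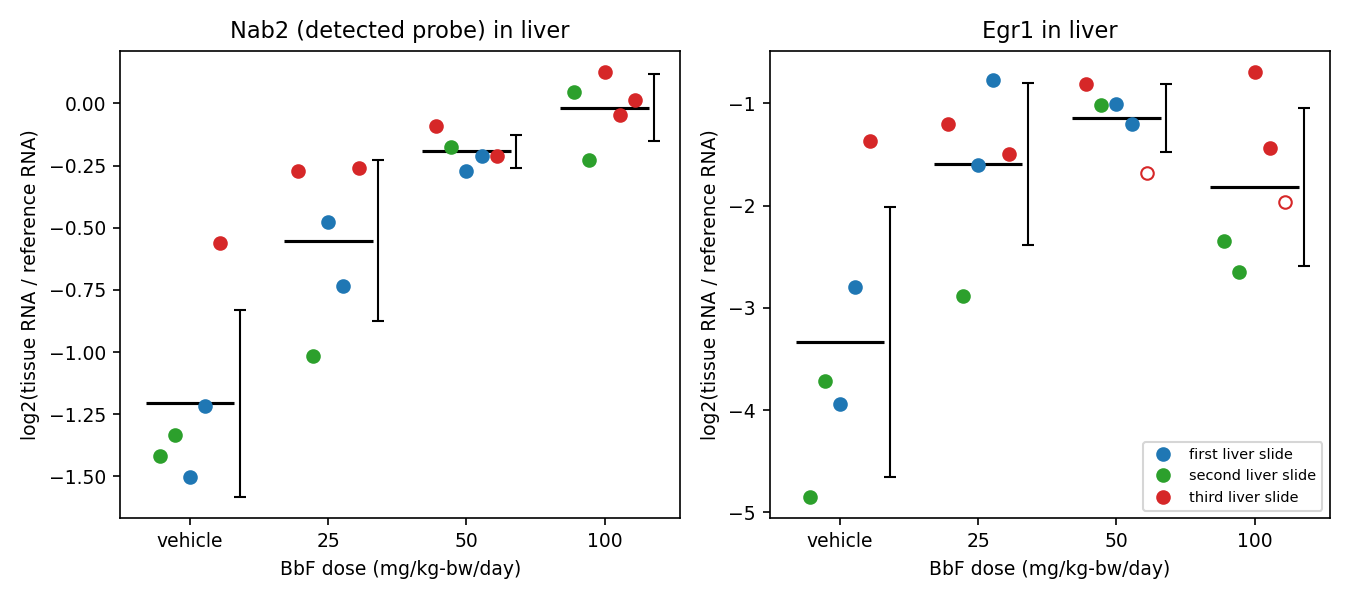
Log2 ratio of tissue to reference RNA for the detected Nab2 probe and for Egr1 in 20 livers, by BbF dose in mg/kg-bw/day (5 mice a dose, in order of mouse number). Points are mice coloured by slide, open where not well above background, with group means (lines) and SD (bars at the side). Every medium-dose and high-dose Nab2 point lies above every vehicle point, and the vehicle mouse on the third slide is the highest vehicle point in both panels.

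The other Nab2 probe (A_55_P2138966, matched to NM_001122895) was well above background on 2 of 59 arrays. Its liver changes were -0.01, 0.01 and 0.03 at the low, medium and high dose. It therefore gave no measure of Nab2, and whether the transcripts differ could not be read from it.

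In lung the Nab2 means were -0.94 ± 0.13 (SD, n = 5), -0.82 ± 0.10 (n = 4), -0.94 ± 0.14 (n = 5) and -0.93 ± 0.19 (n = 5) from vehicle to high dose. The groups overlapped at every dose, and the high-dose change was 0.01 ± 0.09 (SE, limma adjusted p = 0.979). In forestomach the means were -0.38 ± 0.19, -0.64 ± 0.27, -0.68 ± 0.24 and -0.57 ± 0.12 (SD, n = 5 each). There 3 of 5 mice at each dose lay below every vehicle mouse, and the changes were -0.26, -0.29 and -0.19, none called (limma adjusted p 0.976, 0.861 and 0.743).

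Nab1 is the other corepressor of the pair. Its levels in vehicle livers of mice 1 to 5 were 1.11, 0.81, 0.87, 0.88 and 0.26, and those in high-dose livers of mice 16 to 20 were 1.18, 1.13, 0.34, -0.07 and 0.19. Within both groups the arrays of the third slide were the lowest, and the groups overlapped. The Nab1 changes in liver were 0.12 ± 0.10, 0.23 ± 0.10 and 0.11 ± 0.11 (SE), the low and medium dose not called (limma adjusted p 0.876 and 0.477) and the high dose without a test. In lung they were between -0.18 and -0.07 and in forestomach between -0.01 and 0.08.

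Egr1 in medium-dose liver was the only call among the members tested against vehicle with loess-normalised arrays. In vehicle livers of mice 1 to 5 the Egr1 ratios were -4.85, -3.72, -3.94, -2.80 and -1.37. In low-dose livers of mice 6 to 10 they were -1.20, -2.88, -1.61, -0.78 and -1.49. The vehicle livers spanned a wide range with mouse 5, on the third slide, at its top, and 2 of 5 low-dose livers lay above all of them. In medium-dose livers of mice 11 to 15 the ratios were -0.81, -1.02, -1.01, -1.20 and -1.68. In high-dose livers of mice 16 to 20 they were -2.35, -2.65, -0.69, -1.44 and -1.96. At the medium dose 4 of 5 livers lay above every vehicle liver, at the high dose 1 of 5 did, and the high-dose mean was below the medium-dose mean.

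The Egr1 change in liver was 1.49 ± 0.35 (SE) at the low dose (limma adjusted p = 0.295) and 1.94 ± 0.35 at the medium dose (limma adjusted p = 0.0203), a 3.84-fold rise. At the high dose it was 1.39 ± 0.37, without a test. Thus 1 of 9 member probes tested was called at the medium dose, where 0.104% of all probes were called, and the vehicle livers of this test are those that chose Nab2. Of the 9 member probes tested at the low dose, 0 were called by limma, with 0% of all probes called, and 1 of 9 had an unadjusted p under 0.05 (3888 of all probes).

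The Egr1 call at the medium dose was lost without some single livers, in fits that also called fewer probes in all. It was lost without vehicle mouse 1 (limma adjusted p = 0.0693), vehicle mouse 3 (0.0751), medium-dose mouse 12 (0.136) or medium-dose mouse 13 (0.0706). In that order these fits called 14, 9, 9 and 13 of 55681 probes, against 58 with all mice. The Egr1 change in them was 1.718, 1.671, 1.575 and 1.918. The call was also lost with the slide left out of the fit (change 2.19, limma adjusted p = 0.637), where 0 of all probes were called. Without the third slide the medium-dose change was 2.61 (limma adjusted p = 0.0038) and the low-dose change 1.93 (adjusted p = 0.153), and 0.363% of all probes were called at the medium dose. Without vehicle mouse 5 alone, Egr1 was also called at the low dose (1.98, limma adjusted p = 0.0118), where 46 of all probes were called. On the third slide itself the Egr1 mean was -1.371 in the 1 vehicle liver and -1.349, -1.247 and -1.365 with rising dose. Vehicle means were -3.367 on the first slide and -4.28 on the second. The change fitted over all slides therefore averages slides that differed, and the third showed hardly any difference between doses.

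Egr1 scattered within groups far more in liver than the usual probe. Its SD after the dose and slide terms was 0.71 in liver, where the median over all probes was 0.15. In forestomach it was 0.44 and in lung 0.29, with medians of 0.15 for all probes in both. The liver fit gave all slides the same change per dose. The liver SD therefore also holds differences between slides in that change, and does not measure mice alone. The Egr1 means from vehicle to high dose were -3.20, -3.53, -3.22 and -3.30 in lung, and -3.00, -3.00, -3.24 and -3.09 in forestomach, with no call at any dose.

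Over all 59 arrays, after each slide's mean was taken off, Nab2 and Egr1 had a Pearson r of 0.683 (Spearman rho 0.503). Within liver r was 0.796 over 20 arrays, within lung 0.215 over 19 and within forestomach 0.280 over 20. These are descriptions over arrays that share slides and dose groups, and the 4 lowest values of either gene were vehicle livers, so the liver r carries the group differences above.

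**Figure D2:**
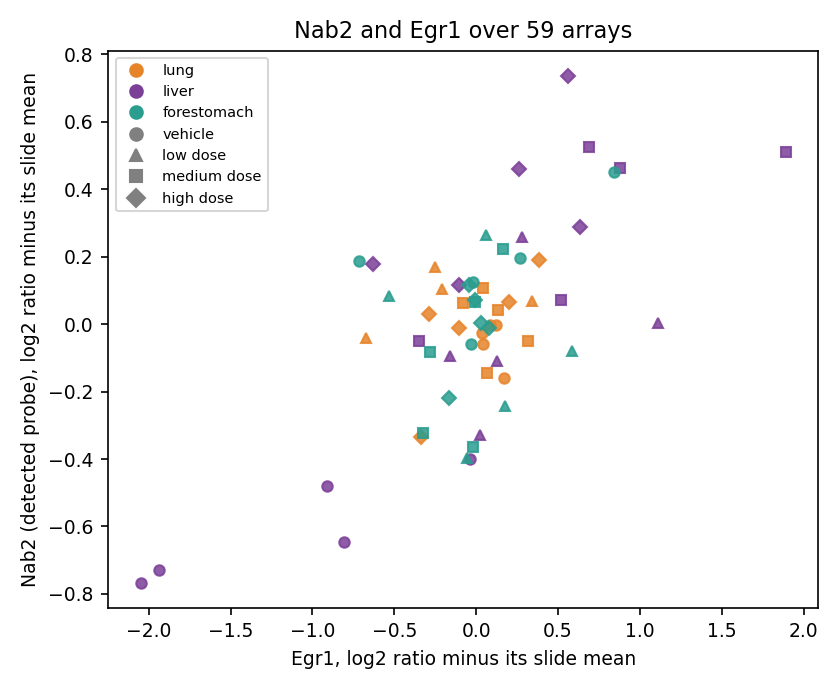
Nab2 (detected probe, vertical axis) against Egr1 (horizontal axis) over 59 arrays, each as log2 ratio minus the mean of its slide. Colours are tissues and shapes are doses. Vehicle livers of mice 1 to 4 form the low end of both axes, vehicle liver mouse 5 lies at -0.04 on the Egr1 axis, and lung arrays lie between -0.67 and 0.38 on it.

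By Pearson r on the same slide-centred values, among 23905 probes well above background on at least 1 in 2 arrays, the genes most like Nab2 were Sun2 (0.801), Cplane1 (0.779), Rnf39 (0.775), Lmbr1l (0.754) and Ushbp1 (0.743). Their changes in high-dose liver were 0.87, 1.08, 0.84, 0.51 and 0.81, and Sun2, a protein of the nuclear envelope, changed by -0.03 in high-dose lung and 0.02 in high-dose forestomach. Egr1 came 15th when each named gene among these probes was counted once. For Egr1 the genes most alike were Phf13 (0.715), Nab2 (0.683), Mast1 (0.682), Cish (0.667) and Cables1 (0.641). Cish, an inhibitor of cytokine signalling, differed from vehicle liver by 2.04, 1.97 and 1.05 in the low, medium and high groups. All these r are over 59 arrays and rank likeness only. The liver dose groups were among the arrays that set r. The liver changes of genes picked by r therefore follow in part from that choice and are no separate result.

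Markers of other cells moved in the same livers. S100a9, a calcium-binding protein abundant in neutrophils, rose by 1.37 at the medium dose (limma adjusted p = 0.0255) and by 1.95 at the high dose (adjusted p = 0.00102). It was 1 of 3 neutrophil markers called, since S100a8 changed by 0.18 and 0.39 and Retnlg by -0.14 and -0.10. The mean level of the list was between -0.13 and 0.21 in vehicle livers and between 0.04 and 0.97 in high-dose livers, with at most 2 of 3 probes well above background on any liver array. Tie1, an endothelial receptor, rose by 0.60 at the medium dose (limma adjusted p = 0.035), 1 of 4 endothelial genes called there and none at the high dose. The other endothelial probes changed by 0.20 (Pecam1), 0.42 (Cdh5) and 0.29 and -0.35 (both Kdr) at the medium dose. Of the red blood cell markers, Alas2, an enzyme of haem synthesis, fell by 0.86 at the high dose (limma adjusted p = 0.0277) and Hba-a1, an alpha globin, was at -0.21. The mean level of these 2 was 5.21 in vehicle and 3.77 in high-dose livers, but 5.65 and 5.49 without the third slide. Without that slide the neutrophil list was at 0.05 and 0.92 and the endothelial list at 1.73 and 2.09. Single markers were not fitted again without it. The part of these cells in the Nab2 and Egr1 values was not tested.

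Among the other Egr genes, Egr2 was measured in lung and in most forestomachs. It was well above background in all 19 lungs, in 16 of 20 forestomachs and in 0 of 20 livers, so its liver values are limits set by background. Its changes were between -0.18 and -0.11 in lung and between -0.27 and -0.14 in forestomach, and none was called. Egr3 was well above background on 1 of 59 arrays, and its group means lay between -0.18 and 0.14 in every tissue.

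Egr2 is known as a target of serum response factor, whose CArG box was found before 4 of its 5 RefSeq starts. Neighbouring starts share the same site, so these 4 matches are not 4 separate sites. The sequence before one of these starts, on the plus strand with the CArG box in capitals, is shown because Egr2 was among the genes whose vehicle level differed between tissues.
Egr2, chr10:67537619-67537868: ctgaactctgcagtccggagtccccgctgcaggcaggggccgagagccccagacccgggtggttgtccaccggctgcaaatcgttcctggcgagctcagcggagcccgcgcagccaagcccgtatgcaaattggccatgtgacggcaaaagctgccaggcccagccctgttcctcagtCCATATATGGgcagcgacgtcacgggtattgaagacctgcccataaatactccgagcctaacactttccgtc

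Of the AP-1 subunits, Fos was not well above background in any liver and was the most variable member in forestomach. It was well above background in 19 of 19 lungs, 19 of 20 forestomachs and 0 of 20 livers. Its liver ratios lay between -3.67 and -3.22 on the first and second slide and between -1.06 and -0.75 on the third. In vehicle forestomachs of mice 1 to 5 the Fos ratios were -1.65, -3.50, -3.34, -2.78 and -3.50. In high-dose forestomachs of mice 16 to 20 they were -1.38, -1.82, -2.92, -2.80 and -3.26. Within each of these groups the mice spread over more than 1 log2 unit, with mouse 1 the highest vehicle mouse and mice 16 and 17 the highest at the high dose, and the groups overlapped.

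The Fos changes in forestomach were 0.64 ± 0.50, 0.50 ± 0.50 and 0.52 ± 0.50 (SE; limma adjusted p 0.976, 0.926 and 0.833). Its SD within dose groups was 0.86 there, against 0.21 in lung. In lung the Fos changes were -0.14, 0.09 and 0.13, with adjusted p of 0.671 or more by limma.

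Fosb was lower than every vehicle mouse in 4 of 5 high-dose lungs and in 4 of 5 high-dose forestomachs. The high-dose Fosb change was -0.22 ± 0.13 in lung (limma adjusted p = 0.404) and -0.31 ± 0.13 in forestomach (adjusted p = 0.504), and neither was called. With median centring the lung value was 0.11. Junb changed by 0.05 in high-dose lung and by 0.04 in high-dose forestomach. Ier2, an immediate early nuclear protein, changed by 0.06 and -0.14 there. In liver the changes of Fosb, Junb and Ier2 were between -0.08 and 0.21 at all doses. For each, 12 of 20 livers were well above background, those of the first and second slide. Without the third slide the changes were between -0.19 (Fosb, high dose) and 0.28 (Ier2, medium dose).

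Dusp1, the MAP kinase phosphatase, had its highest group mean at the high dose in each of the 3 tissues, and no call in lung or forestomach. In vehicle lungs of mice 1 to 5 the Dusp1 ratios were 0.58, 0.63, 0.52, 0.20 and 1.12, and in high-dose lungs of mice 16 to 20 they were 1.06, 1.27, 0.73, 0.84 and 1.21. The high-dose lungs lay above 4 of the 5 vehicle lungs, and vehicle mouse 5 overlapped them. The change was 0.41 ± 0.15 (SE), below the fold threshold and with a limma adjusted p of 0.118. With arrays centred on their median in place of loess it was 0.82 (adjusted p = 0.0109) and called, but probes of like brightness then had a median change of 0.43, against 0.01 with loess.

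In liver 4 of 5 high-dose values of Dusp1 lay above all vehicle values. They were -0.75, -0.36, -0.28, -0.43 and -0.12 in mice 16 to 20, against -1.24, -1.39, -1.14, -1.18 and -0.59 in vehicle mice 1 to 5. Mice 18, 19, 20 and 5 were on the third slide and not well above background there. The change was 0.46 ± 0.13 (SE) with the slide as a term and 0.61 without the third slide, without a test.

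The sequence before the Dusp1 start, on the minus strand, holds a CRE in capitals at bases 143 to 136 before the start, and is shown because Dusp1 had the largest difference of any member between vehicle tissues.
Dusp1, chr17:26508473-26508722: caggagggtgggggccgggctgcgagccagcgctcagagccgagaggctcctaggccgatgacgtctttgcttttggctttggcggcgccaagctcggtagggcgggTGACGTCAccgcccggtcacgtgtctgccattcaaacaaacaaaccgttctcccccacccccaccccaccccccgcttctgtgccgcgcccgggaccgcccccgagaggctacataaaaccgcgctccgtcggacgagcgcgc

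**Figure D3:**
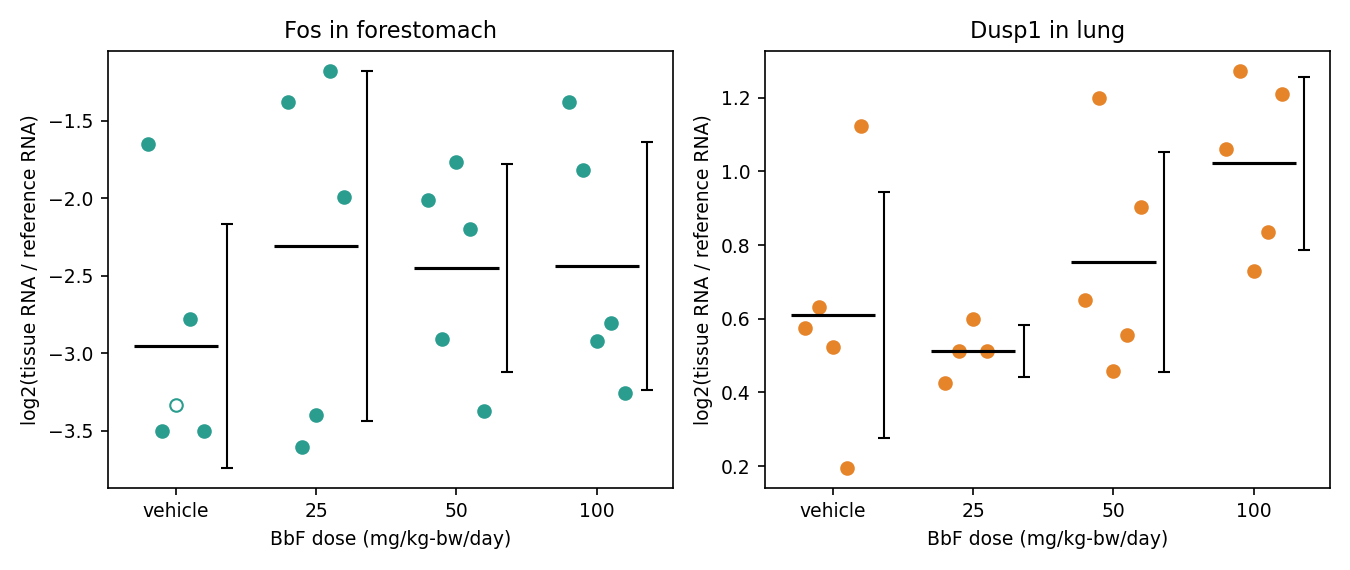
Log2 ratio of tissue to reference RNA for Fos in forestomach and Dusp1 in lung by BbF dose in mg/kg-bw/day; points are mice in order of number (5 a group, 4 low-dose lungs), open where not well above background, with group means (lines) and SD (bars at the side). In each group the Fos values span more than 1 log2 unit, and the high-dose Dusp1 lungs lie above all vehicle lungs but mouse 5 at 1.12.

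In lung 0 of 11 probes were called by limma at the low, medium and high dose, where 0.345%, 0.469% and 1.45% of all probes were called. There 0, 1 and 2 member probes had an unadjusted p under 0.05, against 5053, 7836 and 10246 of all probes. In forestomach 0 of 11 were called at each dose, against 0%, 0% and 0.07% of all probes (2575, 3158 and 4846 with an unadjusted p under 0.05), and 1 member probe at each dose had an unadjusted p under 0.05. The lowest adjusted p among members was 0.118 in lung and 0.504 in forestomach. Without lung mouse 6 no member was called at the low dose, where 0.314% of all probes were called. The Egr1 change there was -0.24 in place of -0.33 and that of Fosb -0.15 in place of -0.24. Without forestomach mouse 12 no member was called at the medium dose, where 0% of all probes were called. The Fos change was 0.62 in place of 0.50 and that of Egr2 -0.25 in place of -0.14.

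With rising dose, the median change over the 11 probes was -0.13, -0.03 and 0.01 in lung and 0.00, -0.11 and -0.13 in forestomach, while medians over all probes were within 0.01 of 0. In liver it was 0.03, 0.16 and 0.11. At the high dose, where 0.246% of all probes were called, the liver changes ran from -0.08 for Fosb to 1.39 for Egr1. Without the third slide 0.625% of all probes were called there. Whether the high-dose change differed between lung and forestomach was tested directly: 0 of 11 member probes were called by limma (0 with an unadjusted p under 0.05; lowest adjusted p = 0.664), against 0.765% of all probes.

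**Figure D4:**
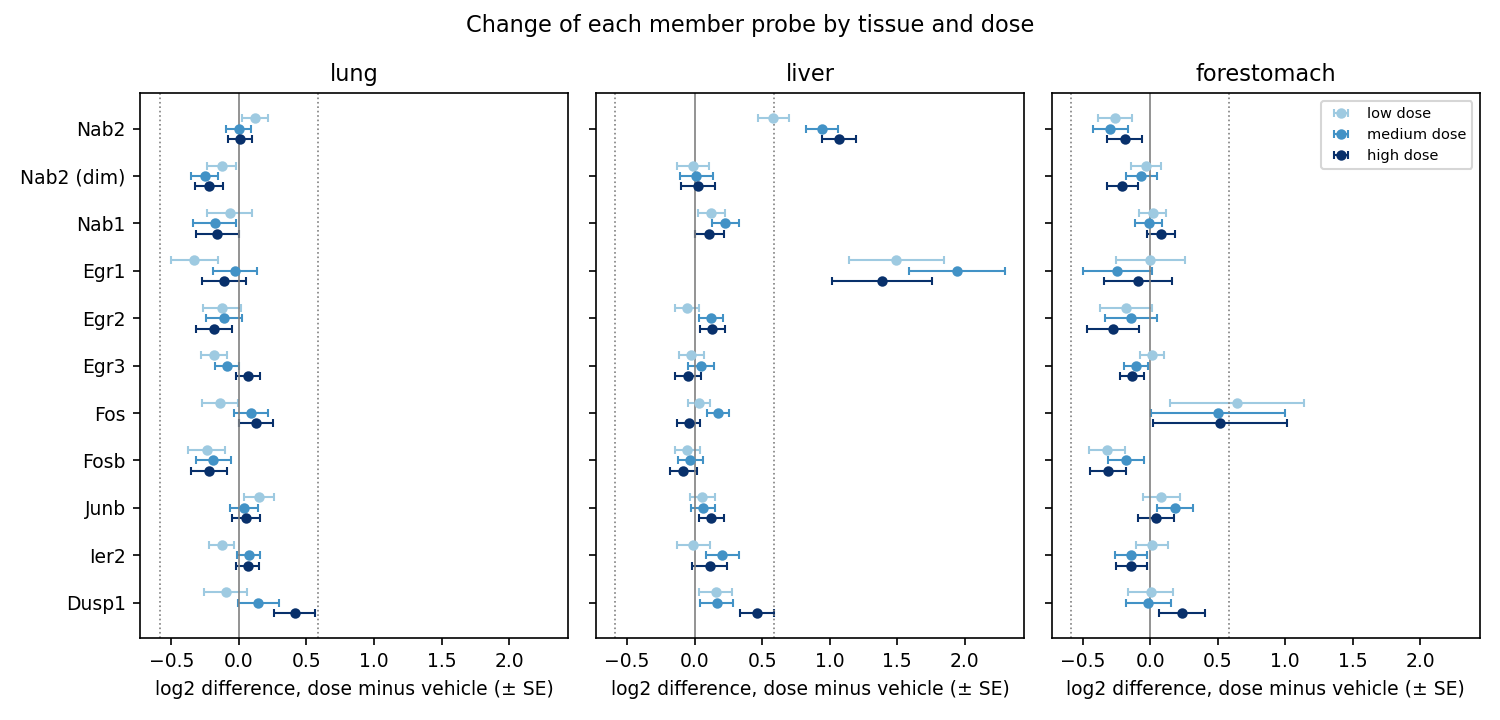
Log2 difference between each dose group and vehicle (horizontal axis, points with SE) for the 11 member probes in lung, liver and forestomach. Dotted lines mark the 1.5-fold threshold on either side of 0. Nab2 in medium-dose and high-dose liver and Egr1 at each dose in liver lie past it, Nab2 in low-dose liver sits at the line, Fos in forestomach has the widest errors there, with its low-dose point past the line, and the remaining points of lung and forestomach lie between the lines.

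Lists of genes around these pathways were examined in the same comparisons. In high-dose lung, where 1.45% of all probes were called, 1 of 17 probes of other immediate early transcription factors and 2 of 11 of other immediate early genes rose, and none fell. With median centring 4 of each list were called, and without high-dose mouse 18 the transcription factor count was 2. Klf4, a zinc finger factor, was between 1.80 and 2.58 in high-dose lungs, all of them above every vehicle lung, and the change was 0.92 ± 0.12 (SE, limma adjusted p = 0.000108). Ier5 was between 0.45 and 1.09 in vehicle lungs and at 1.12 or more in every high-dose lung, a change of 0.70 ± 0.12 (adjusted p = 0.0015). Rhob, a small GTPase, changed by 0.71 ± 0.14 (adjusted p = 0.00352), with vehicle mouse 5 at 0.89 overlapping the high-dose mice at 0.86 to 1.28.

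The median change of the transcription factor list in high-dose lung was 0.03 and that of the other immediate early genes 0.11. Klf4 was also the only gene of these lists whose high-dose change differed between lung and forestomach (lung minus forestomach 1.03 ± 0.22, limma adjusted p = 0.00865). In the same lungs the neutrophil markers S100a8 (1.20, adjusted p = 0.0402) and Retnlg (1.26, 0.0262) rose, 2 of 3 of that list, and the mean level of the list ran from 2.94 to 4.31 in vehicle lungs and from 4.35 to 5.39 in high-dose lungs. The endothelial markers Pecam1 (0.74, adjusted p = 0.00251) and Cdh5 (0.82, 0.0131) rose too, 2 of 4 genes, while Tie1 was at 0.21 and the Kdr probes at 0.38 and -0.20, with list levels of 3.90 to 4.32 and 4.14 to 4.78. Their part in the Klf4, Ier5 and Rhob values was not tested.

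With loess-normalised arrays no probe of the feedback inhibitors of ERK signalling (10 probes), the upstream kinases and factors (23), the NuRD corepressor complex that Nab proteins recruit (18), known Egr1 targets (10) or heat shock genes (6) was called for any dose in any tissue with all mice in the fit. With median centring, under which 3503 probes in all were called in high-dose lung, the counts there were 1, 2, 1 and 3 for the first 4 of these lists. With loess and the slide as a term 1 heat shock probe was called in high-dose lung. All 6 heat shock probes had changes below 0 at each dose in lung and forestomach. With rising dose their medians were -0.32, -0.30 and -0.34 in lung, -0.33, -0.47 and -0.69 in forestomach, and 0.03, -0.19 and -0.27 in liver. The mean level of this list ran from 0.01 to 1.30 in vehicle lungs, and the cause of the lower values was not tested. Without lung mouse 5 (vehicle) or mouse 13 (medium dose) 1 feedback inhibitor was called at the medium dose. Known targets of Egr1, such as the growth factor gene Pdgfa and the coagulation gene F3, changed by between -0.26 and 0.44 in high-dose liver, with a median of 0.05. The NuRD genes changed by between -0.23 and 0.36, with a median of 0.00. These values are over all slides. Of the 10 target probes, 1 to 9 were well above background on a vehicle liver array and 3 to 9 on a high-dose one. Of the 18 NuRD probes 7 to 17 were, in both groups. Without the third slide, Klf10 was called in high-dose liver (2.08, limma adjusted p = 0.0327), from 2 high-dose livers on 1 slide. Maff was called there (1.13, limma adjusted p = 0.0155) and at the medium dose (0.90, 0.0244), but it was well above background in 1 of the 4 vehicle livers, so these differences are set against values near background. With all slides Klf10 changed by 1.14 (adjusted p = 0.12) and Maff by 0.66 (adjusted p = 0.0771) at the high dose.

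In vehicle mice the members differed between tissues. Each tissue had slides of its own, so slide and tissue cannot be told apart. Dusp1 was between 0.20 and 1.12 in lung, between -1.39 and -0.59 in liver and between -1.25 and -0.64 in forestomach. No lung overlapped the other tissues, and the ratio was 3.29-fold higher in lung than in liver (difference 1.72 ± 0.17 SE, limma adjusted p = 6.33e-07) and 3.06-fold higher than in forestomach (1.61 ± 0.17, adjusted p = 1.87e-06). Liver and forestomach did not differ past the threshold (-0.10 ± 0.17, adjusted p = 0.725).

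Junb and Ier2 ran the other way between lung and liver. Junb ranged from -1.90 to -1.48 in vehicle lungs and from -1.25 to -0.16 in vehicle livers, a lung minus liver difference of -0.78 ± 0.17 (SE, limma adjusted p = 0.00129). Ier2 ranged from -1.60 to -1.40 in lung and from -0.87 to -0.09 in liver, a difference of -0.82 ± 0.13 (adjusted p = 5.98e-05). All 5 lungs lay below all 5 livers for both genes, and the highest liver of each was mouse 5 on the third slide. Without mouse 5 the Junb difference was -0.58, just under the fold threshold. Ier2 was also lower in lung than in forestomach (-0.36, adjusted p = 0.0415) and higher in liver than in forestomach (0.46, adjusted p = 0.00927), both short of 1.5-fold.

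Nab1 and Egr2 were higher in lung than in forestomach. Nab1 was between 0.85 and 1.78 in vehicle lungs and between 0.22 and 0.63 in vehicle forestomachs (difference 0.76 ± 0.17 SE, limma adjusted p = 0.0028). Without mouse 1, whose lung was the highest, the difference was 0.56 and under the fold threshold. Egr2 was between -1.27 and -0.77 in lung and between -2.35 and -1.64 in forestomach (difference 1.00 ± 0.23, adjusted p = 0.00304). The mean Egr2 ratio in lung was -0.99. In vehicle liver it was -1.53, but the probe was not well above background in any of the 5 mice, so no fold is given (limma adjusted p = 0.0827).

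Nab2 had its highest vehicle level in forestomach. All 5 lungs lay below all 5 forestomachs (difference -0.56 ± 0.15 SE, 1.47-fold, limma adjusted p = 0.00904), short of the fold threshold. The Nab2 means were -0.38 in forestomach, -0.94 in lung and -1.21 in liver, with vehicle liver mouse 5 above all lungs and the other 4 livers below. The liver minus forestomach difference was -0.82 ± 0.15 and the lung minus liver difference 0.27 ± 0.15 (0.48 without mouse 5), without a test. At the high dose the liver mean of -0.02 was the highest Nab2 mean of the 12 groups.

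The vehicle means of Egr1 were -3.20 ± 0.11 (lung), -3.33 ± 1.32 (liver) and -3.00 ± 0.72 (forestomach; SD, n = 5), which did not differ beyond their spread. Liver mouse 5, on the third slide, was the highest vehicle liver. Without mouse 5 the Egr1 liver minus forestomach difference was -0.91 (limma adjusted p = 0.0861). The lung minus liver difference was then 0.62 (limma adjusted p = 0.24), and neither was called. The mean Fos ratio was -2.69 in lung and -3.00 in liver, where the probe was not well above background in any vehicle mouse, so no fold is given (limma adjusted p = 0.659). For Fosb the lung minus liver difference was -0.58 with a limma adjusted p of 0.0665, and its vehicle livers ranged from -2.12 to -0.48 with mouse 5, on the third slide, the highest. Without mouse 5 the Fosb difference was -0.24 (adjusted p = 0.0481, limma), under the fold threshold.

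Thus 3 of 9 member probes tested were called between vehicle lung and liver, 3 of 11 between lung and forestomach and 0 of 9 between liver and forestomach by limma (2 with an unadjusted p under 0.05). Over all probes 24.4%, 19.1% and 20.1% were called. Of the other immediate early transcription factors, 9 probes were higher and 2 lower in lung than in liver out of 17, led by Jun (4.33 higher), Klf2 (3.91) and Klf4 (3.46). Between liver and forestomach 9 of the 17 were lower in liver and none higher, with Klf4 lower by 5.76 on the log2 scale.

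**Figure D5:**
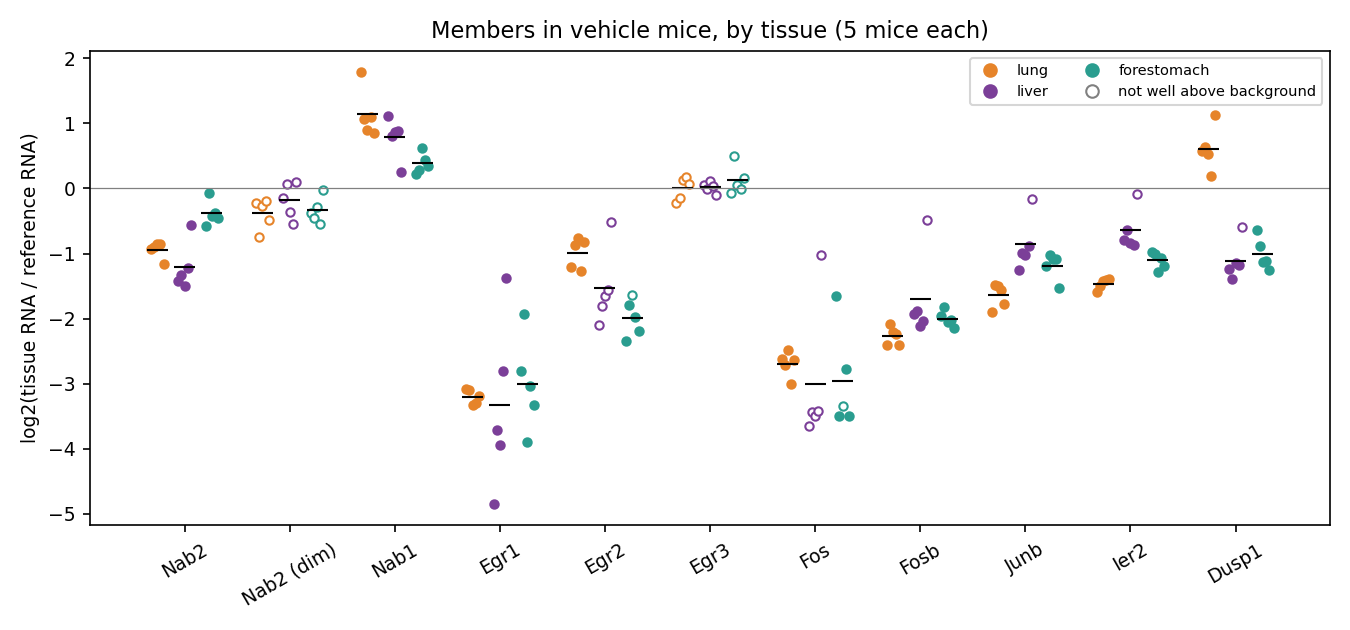
Log2 ratio of tissue to reference RNA for each member probe (horizontal axis) in 5 vehicle mice of lung, liver and forestomach; points are mice, open where not well above background, and lines are means. Dusp1 lies higher in all lungs, Junb and Ier2 lower in all lungs than in all livers, and mouse 5 of liver is the high purple point of most genes.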

How the data were processed

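Agilent 2-colour mouse arrays were scanned and read with Feature Extraction 10.7.3.1, per the file headers. The deposited median spot intensity of the tissue channel (Cy5) and the reference channel (Cy3) was used without background subtraction, as in the study's methods. Control spots and outlier flags were left out, log2(Cy5/Cy3) was normalised within each array by loess, and spots of a probe were averaged to 55681 probes; 26413 probes matched a gene symbol through their RefSeq accession. The authors' processed log2 ratios, deposited in a series table, served as an alternative. No column of values was without a matching sample (0 of them), and no dyes were swapped, so a dye effect is shared by all arrays. The number of arrays limits the precision.

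Changes were fitted with limma 3.58.1 in R 4.3.3 (lmFit, eBayes, Benjamini-Hochberg over all probes), 1 fit per tissue, with the slide as a term in liver. Mice are separate replicates within a dose, the same number is the same mouse in each tissue, and vehicle tissues and the lung minus forestomach effect were also fitted with the mouse as a block. Every member probe is named, from the pathway lists up to 3 called probes in each direction, and for likeness the 5 highest r. The members and lists were chosen with earlier results of these data known. Motifs were searched in the 250 bases before a start, leaving out the transcribed bases. Alternatives were median centring, normexp (offset 50), a filter on dim probes, the authors' ratios, the slide term added or removed, the third liver slide left out, the mouse block and each mouse left out. An alternative was counted as turning a direction only where a called value changed sign. Protein sequences were not used here.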

Additional observations from a re-analysis of the deposited data

Results flagged for a closer look

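Each member probe in each group of 4 or 5 mice was examined for a mouse far from the others of its group, by a gap test that chance alone meets in about 1 in 20 groups. It was met in 6 of 132 groups (4.55%), of which 2 were on the third liver slide. In vehicle liver, mouse 5 on that slide stood above the others for Fos (-1.03, the next at -3.42) and for Fosb (-0.478, the next at -1.89), in neither case well above background. In lung, vehicle mouse 5 was low for Nab2 (-1.16, the next at -0.925), vehicle mouse 1 was high for Nab1 (1.78, the next at 1.10), medium-dose mouse 12 was high for Fos (-2.15, the next at -2.62), and high-dose mouse 16 was low for Egr3 (-0.234), a probe not above background in that group. Outside the members, the high-dose change of Klf4 differed between lung and forestomach by 1.03 in the direct test of that difference.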

How the results depend on the processing

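Of 187 counts and leading values recomputed under the alternatives, 178 kept their side or stayed within the replicate spread, and 9 did not. Of 1958 single probe values 1936 did so, no called value changed sign and 22 moved otherwise. Counting uncalled and untested values too, 162 had the other sign, 156 of them with a change under 0.2 in size. Without the slide term high-dose liver values turned from 0.11 to -0.23 for Nab1, from -0.08 to 0.65 for Fosb and from -0.04 to 0.97 for Fos. With median centring 1 member was called in high-dose lung (Dusp1, 0.82), 0 in medium-dose liver (Egr1, 1.90, adjusted p = 0.0849) and 1 between vehicle lung and liver, Dusp1, where Junb was at -0.54 (adjusted p = 0.038) and Ier2 at -0.49 (adjusted p = 0.231). Under it Nab1 differed between lung and forestomach by 0.73 (adjusted p = 0.538), and 3503 probes in all were called in high-dose lung (3466 higher, 37 lower) against 807 (575 higher, 232 lower). It called 6 probes in medium-dose liver against 58, 24 in high-dose liver against 137 and 7167 between vehicle lung and liver against 13604. Without the slide term 0 members were called in medium-dose liver, where 0 of 55681 probes were called in all. The cause was not tested. With 1 mouse at a time left out there were 0 to 1 members called in low-dose and in medium-dose liver. There were 3 to 4 between vehicle lung and liver and between vehicle lung and forestomach, and 0 in the other comparisons tested. Over all probes, these fits called 0 to 46 in low-dose liver and 9 to 201 in medium-dose liver. They called 12932 to 14281 between vehicle lung and liver and 9843 to 11119 between vehicle lung and forestomach. Calls over all probes were 671 to 900 in high-dose lung and 20 to 44 in high-dose forestomach. The high-dose liver difference of Nab2 was from 0.98 to 1.23. Without vehicle mouse 5, Egr2 (0.75, adjusted p = 0.00131) and Fos (0.79, adjusted p = 0.0409) passed the threshold between lung and liver, where neither probe was well above background in any liver, so these are not measured folds. Without vehicle mouse 1 or 3, Nab2 was called between lung and forestomach (-0.61 and -0.59). With the authors' ratios Fosb was called between lung and liver (-0.64, adjusted p = 0.0334). In high-dose liver Nab2 was 1.04 with median centring, 1.19 without the slide term, 1.08 with normexp and 0.96 with the authors' ratios.

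The same number is the same mouse in each tissue, so tissues were paired. With the mouse as a replicate block the counts were 3, 3 and 0 between vehicle tissues and 0 for lung minus forestomach, with the same members called: Dusp1 differed between lung and liver by 1.72 (adjusted p = 5.64e-06). Dose groups hold different mice and cannot be paired.

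Signal over background limits Egr2 and Fos in liver, Egr3 and the second Nab2 probe in every tissue, and most members on the third liver slide.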
